A study of Mus musculus with 54 samples.

Results

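Gcnt2, Npr2, Gpr26, Mindy4b-ps, Wipf3, Samd14, Cyp11a1 and Nrbp2 are the 8 genes described here, of 47069 in the count table. They were picked because the study named them for altered expression in Mbd5+/GT mice, so they were chosen by the contrast between genotypes in these same libraries, and every difference between genotypes given for them is a description without a test. RNA was sequenced from the cortex, striatum and cerebellum of 18 mice on a C57BL/6 background at 8 weeks of age. The 10 Mbd5+/GT mice carried 1 Mbd5 allele with a gene-trap insertion in intron 2, which lowers but does not abolish expression and is present in every cell, and the 8 WT mice were littermates with no such insertion. Litter 1 held 3 Mbd5+/GT and 3 WT females, litter 2 held 4 Mbd5+/GT males and 1 WT male, and litter 3 held 2 Mbd5+/GT females, 1 Mbd5+/GT male, 2 WT females and 2 WT males.

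MBD5 belongs to a family of nuclear proteins with a methyl-CpG-binding-like domain, and deletion of the human gene is a cause of a neurodevelopmental disorder. The 8 genes share no single pathway. They comprise a sugar-transferring enzyme of the Golgi, a cell surface receptor that makes cyclic GMP, an orphan receptor coupled to cyclic AMP, a relative of a deubiquitinase family, a pair of proteins linked to the actin cytoskeleton, the enzyme that opens steroid synthesis, and a kinase-like protein without a known catalytic role.

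All 54 libraries held 25295973 to 49027399 counts over genes, with a median of 29073866. Levels are given as CPM, read counts scaled to a common library total after trimmed mean of M values (TMM) normalization over all libraries. Mbd5 itself had a median of 45.8 CPM in Mbd5+/GT cortex against 67.9 in WT cortex, 37.2 against 46.8 in striatum and 40.3 against 54.6 in cerebellum, and the genotypes overlapped in each region. Libraries did not all carry the markers of the region on their label. The library labelled cerebellum of Mbd5+/GT mouse M755 had a summed granule cell marker level (Gabra6, Neurod1, Cbln1 and Zic1) of 99.1 CPM, and that of WT mouse M754 had 983 CPM, whereas the other cerebellum libraries ran from 2017 to 3096 CPM. Mouse M755 also had the lowest level of each of the 4 Purkinje cell markers and the highest level of each of the 5 hindbrain markers, with Hoxb5 at 84.0 CPM against a median of 0.052 over the cerebellum libraries. In striatum, the summed striatal neuron markers (Drd1, Drd2, Ppp1r1b, Adora2a and Penk) were lowest in WT mice M754 (191 CPM) and M761 (483 CPM) and Mbd5+/GT mouse M763 (888 CPM), against 5631.5 CPM in the highest library. These 5 libraries, each under 40% of the median of its region for these markers, are called libraries low in markers, and results are given with and without them. The cut was set after seeing the data. Striatum libraries of Mbd5+/GT mice M756, M755 and M753, at 40.57%, 49.2% and 55.9% of the median, were kept. In the cortex, all 5 striatal neuron markers had a lower mean in Mbd5+/GT mice than in WT mice, with a summed level of 162 to 904 CPM (median 339.9) against 114 to 1329.5 CPM (median 798). Means of other cell type markers also differed between genotypes in cortex, some of them little. Choroid plexus markers summed to 8.77 to 1280.0 CPM (median 295) in Mbd5+/GT and 14.2 to 240.3 CPM (median 66.3) in WT cortex, with 4 of 5 higher on average in Mbd5+/GT mice. All oligodendrocyte (5), ependyma (3) and erythrocyte (3) markers had a higher mean in Mbd5+/GT cortex, and all meningeal (4), microglial (4), endothelial (3) and oligodendrocyte precursor (2) markers a lower one. Of the 6 cortical neuron markers, 1 had a lower mean. The same held for 1 of the 6 hypothalamus markers, whose sums reached 117 CPM in Mbd5+/GT and 19.9 CPM in WT cortex (medians 1.83 and 1.52 CPM). Mbd5+/GT mouse M758 had the highest cortical level of the hypothalamus marker Pmch, at 82.5 CPM against a median of 0.246. Its cortex library was also the lowest in summed cortical neuron markers, at 60.5% of the median, and was kept. Summed medians in Mbd5+/GT and WT cortex were close for endothelial (111.3 and 111.6 CPM) and microglial markers (150.5 and 152.5 CPM). For meningeal markers the median was higher in Mbd5+/GT cortex (44.4 and 43.0 CPM). In such bulk samples, fewer cells of a type and less RNA per cell cannot be told apart.

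The genotype differences of the 8 genes were mostly small beside the spread between mice. From the mean log2 CPM, 6 of the 8 genes had the same sign of difference in the 3 regions, upward in Mbd5+/GT mice for Npr2 and Nrbp2 and downward for Gpr26, Mindy4b-ps, Wipf3 and Cyp11a1. Gcnt2 and Samd14 did not. Mice are counted against the WT mean on the log2 scale. Without the 5 libraries low in markers all 8 kept 1 sign across regions, although that of Samd14 in cerebellum was then 0.0058 on the log2 scale. With the surrogate variables of the fit, 7 of the 8 had 1 sign. In no region did the genotypes separate fully for any of the 8 genes, in a background where 0.00536% of the genes tested in cortex lay wholly higher and 0.00536% wholly lower in Mbd5+/GT mice, and 0% did so in either direction in striatum or cerebellum. That contrast chose the genes, so nothing is read from this count or from the number of genes with 1 sign. The study's meta-analysis across regions also took only genes changing in 1 direction in all of them.

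**Figure D1:**
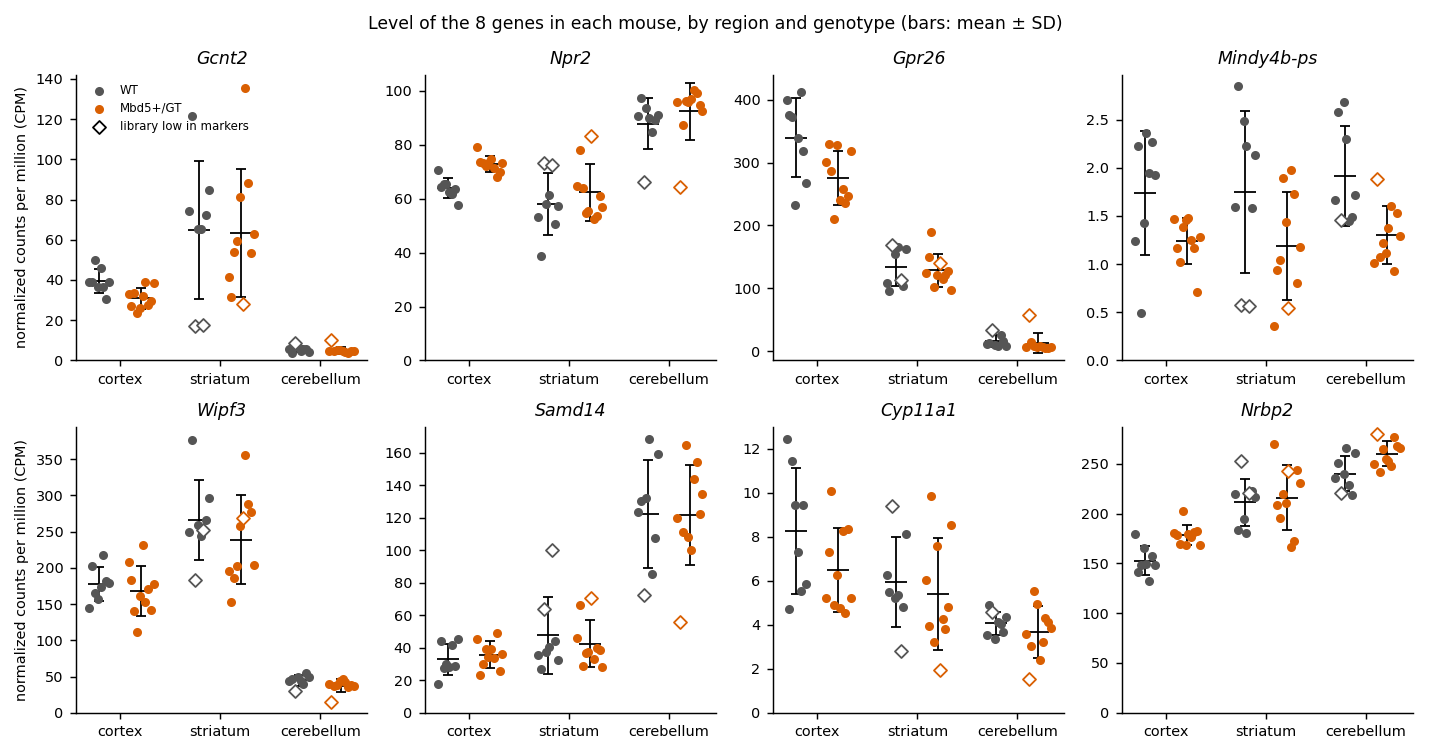
Normalized level in CPM (linear axis) of each of the 8 genes in each of the 18 mice, by region and genotype, where each point is 1 library, the black bars are the mean ± SD and the open diamonds are the 5 libraries low in markers. Genotypes overlapped in every panel, and in cerebellum the open diamonds held the lowest Npr2, Wipf3 and Samd14 and the highest Gpr26 values.

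Npr2 (ENSMUSG00000028469, GRCm38 chr4:43631935-43651244, plus strand) encodes the receptor guanylyl cyclase for C-type natriuretic peptide, which makes cyclic GMP and is needed for the branching of sensory axons. In the cortex, it was present at 67.9 to 79.0 CPM (median 73.1) in Mbd5+/GT mice and 57.7 to 70.5 CPM (median 63.9) in WT mice. All 10 Mbd5+/GT mice lay above the WT mean, and 8 of them above every WT mouse, where the highest was mouse M751. The mean difference was 0.19 ± 0.034 (log2, SE), and within litters 1, 2 and 3 it was 0.23, 0.29 and 0.18. In the striatum the values were 52.6 to 83.1 CPM (median 58.8) in Mbd5+/GT mice and 38.6 to 73.4 CPM (median 57.5) in WT mice. Here 5 of 10 Mbd5+/GT mice were above the WT mean, and the groups shared most of their range. Among WT striatum libraries, the highest Npr2 values were those of mice M754 and M761, and among Mbd5+/GT striatum libraries that of mouse M763. The difference of 0.11 ± 0.13 (log2, SE) became 0.18 without these 3 libraries. Without the repeated striatum libraries of WT mice M751 and M752 it was 0.00068. No Mbd5+/GT striatum library was a repeat. In the cerebellum Npr2 ran from 64.3 to 100 CPM (median 95.8) in Mbd5+/GT mice and from 66.1 to 97.2 CPM (median 90.2) in WT mice. The lowest value of each genotype came from the libraries of mice M755 and M754. The cerebellar difference was 0.072 ± 0.085, and 0.071 without these 2 libraries. In cortex, means of the markers of striatal neurons, choroid plexus and the other cell types named above differed between genotypes, some of them little. Their part in the cortical differences of Npr2 and the other 7 genes was not tested.

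Nrbp2 (ENSMUSG00000075590, chr15:76085518-76091627, minus strand) encodes a pseudokinase related to nuclear receptor binding protein 1. Its cortical level was 168 to 202 CPM (median 179) in Mbd5+/GT mice and 132 to 179 CPM (median 149) in WT mice. Again all 10 Mbd5+/GT mice exceeded the WT mean, and 5 exceeded all WT mice. The difference was 0.23 ± 0.054 (log2, SE), with 0.33, 0.25 and 0.16 in litters 1 to 3. Cerebellar Nrbp2 was 242 to 280 CPM (median 259) in Mbd5+/GT mice against 219 to 266 CPM (median 238) in WT mice. Each of the 10 Mbd5+/GT mice was above the WT mean there too, and the 3 litters gave differences of 0.12, 0.020 and 0.12. The cerebellar mean difference was 0.12 ± 0.043, and 0.088 without the libraries of mice M754 and M755. In the striatum the gene was at 166 to 270 CPM (median 215) and 181 to 252 CPM (median 218). The striatal values of the genotypes lay over each other, with a difference of 0.025 ± 0.090 (log2, SE) and 6 of 10 Mbd5+/GT mice above the WT mean. Without the striatum libraries low in markers the difference was 0.060.

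Gpr26 (ENSMUSG00000040125, chr7:131966460-131994405, plus strand) encodes an orphan G protein-coupled receptor of brain that raises cyclic AMP without an added ligand. In the cortex it was at 210 to 329 CPM (median 272) in Mbd5+/GT mice and 233 to 412 CPM (median 356) in WT mice. Every Mbd5+/GT mouse was under the WT mean, but WT mice M757, M765 and M762 lay within the Mbd5+/GT range. The difference was -0.29 ± 0.13 (log2, SE), and it was -0.48, -0.022 and -0.15 in litters 1, 2 and 3. In the cerebellum, where the gene was scarce, levels were 4.26 to 57.2 CPM (median 6.89) in Mbd5+/GT mice and 7.47 to 33.9 CPM (median 12.1) in WT mice. The Mbd5+/GT value of 57.2 CPM was the library of mouse M755 and the WT value of 33.9 CPM that of mouse M754, so the highest Gpr26 of each genotype was in the cerebellum library with the fewest granule cell transcripts. The 3 cerebellum libraries lowest in granule cell markers (mice M755, M754 and WT mouse M761) held the 3 highest Gpr26 levels of all 18. The difference of -0.67 ± 0.44 (log2, SE) was -0.79 without mice M755 and M754, and 7 of 10 Mbd5+/GT mice were below all WT mice. Litters differed in sign, at -0.98, -0.52 and 0.30, and the library of mouse M755 belonged to the litter with the positive value. In the striatum Gpr26 was at 97.2 to 189 CPM (median 123) in Mbd5+/GT mice and 96.3 to 169 CPM (median 133) in WT mice. No Mbd5+/GT striatum lay below all WT mice, and the difference was -0.048 ± 0.15, or -0.039 without the striatum libraries low in markers.

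**Figure D2:**
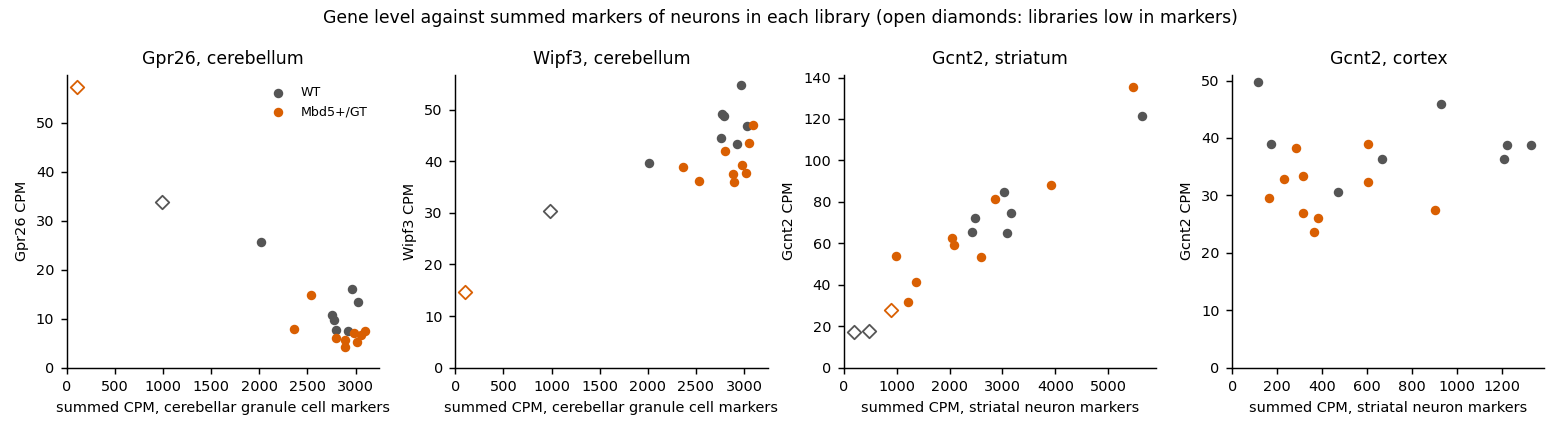
Level of Gpr26 and Wipf3 in cerebellum (CPM) against summed granule cell markers, and of Gcnt2 in striatum and cortex against summed striatal neuron markers (CPM, linear axes), with 1 point per library coloured by genotype and open diamonds for libraries low in markers. The library of mouse M755, at 99.1 CPM of granule cell markers, had 57.2 CPM of Gpr26 and 14.7 CPM of Wipf3, and the 3 striatum libraries with the fewest striatal markers had the 3 lowest Gcnt2 levels.

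Gcnt2 (ENSMUSG00000021360, chr13:40859754-40960892, plus strand) encodes the glycosyltransferase that forms the branches of the I blood group antigen on poly-N-acetyllactosamine chains. Cortical levels were 23.6 to 38.9 CPM (median 30.9) in Mbd5+/GT mice and 30.6 to 49.7 CPM (median 38.8) in WT mice. All 10 Mbd5+/GT mice were below the WT mean and 5 were below every WT mouse. The difference was -0.35 ± 0.11 (log2, SE), and it was -0.45, -0.23 and -0.39 in litters 1 to 3. WT mouse M754 had the lowest striatal neuron markers in cortex, which were lower on average in Mbd5+/GT mice, and the highest cortical Gcnt2. The part of these markers, and of the choroid plexus and other markers whose means differed between genotypes, was not tested. In the striatum Gcnt2 varied widely, from 27.98 to 136 CPM (median 56.6) in Mbd5+/GT mice and from 17.1 to 122 CPM (median 68.7) in WT mice. WT mice M754 and M761, at 17.1 and 17.5 CPM, were far under the other 6 WT mice, and Mbd5+/GT mouse M763 was the lowest of its group. All 3 are libraries low in striatal neuron markers, and the Mbd5+/GT library of mouse M764 and the WT library of mouse M752, highest in those markers for their genotype, had the highest Gcnt2. The mean difference was 0.091 ± 0.43 (log2, SE), with 6 of 10 Mbd5+/GT mice above the WT mean, and turned to -0.34 without the 3 libraries. Without the repeated libraries of WT mice M751 and M752 it was 0.36. The sign also turned with the scale, since the mean CPM was 63.5 in Mbd5+/GT and 64.7 in WT mice. Leaving out WT mouse M754 alone gave -0.15. In the cerebellum the gene was at 3.87 to 9.93 CPM (median 4.62) in Mbd5+/GT mice and 3.89 to 8.86 CPM (median 5.82) in WT mice. The top value of each genotype was the library of mouse M755 or M754, 9 of 10 Mbd5+/GT mice were below the WT mean, and the difference was -0.18 ± 0.18, or -0.19 without those 2 libraries.

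Mindy4b-ps (ENSMUSG00000101860, chr3:58788407-58822311, minus strand) is a relative of the MINDY deubiquitinases, enzymes that trim ubiquitin chains, and its symbol marks it as a pseudogene although the annotation used lists it as protein-coding. It was the scarcest of the 8 genes, with 9 to 78 counts per library, so single libraries were imprecise. Cortical values were 0.707 to 1.48 CPM (median 1.26) in Mbd5+/GT mice and 0.490 to 2.36 CPM (median 1.94) in WT mice. All 10 Mbd5+/GT mice were below the WT mean, yet the lowest of all was WT mouse M754. The cortical difference was -0.37 ± 0.27 (log2, SE), and -0.59 without mouse M754. In the striatum the values were 0.361 to 1.98 CPM (median 1.11) and 0.563 to 2.84 CPM (median 1.86). WT mice M761 and M754 were again the lowest of their group, and 7 of 10 Mbd5+/GT mice were below the WT mean. The striatal difference was -0.50 ± 0.38, and -0.84 without the 3 striatum libraries low in markers. Without the repeated libraries of WT mice M751 and M752 it was -0.34. In the cerebellum Mindy4b-ps was at 0.931 to 1.88 CPM (median 1.25) in Mbd5+/GT mice and 1.45 to 2.68 CPM (median 1.69) in WT mice. There 7 of 10 Mbd5+/GT mice lay below all WT mice, with a difference of -0.52 ± 0.16 (log2, SE) and values of -0.45, -0.37 and -0.65 in the 3 litters. Without mice M754 and M755 it was -0.63.

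Wipf3 (ENSMUSG00000086040, chr6:54429603-54503768, plus strand) encodes a brain member of the WASP-interacting protein family, which regulates actin branching through N-WASP. Cerebellar levels were 14.7 to 47.1 CPM (median 38.3) in Mbd5+/GT mice and 30.5 to 54.8 CPM (median 45.7) in WT mice. Mice M755 and M754 were the lowest of their groups, 9 of 10 Mbd5+/GT mice lay under the WT mean, and only mouse M755 lay under every WT mouse. The difference was -0.30 ± 0.17 (log2, SE), and -0.23 without both libraries. In the striatum Wipf3 was at 152 to 356 CPM (median 230) in Mbd5+/GT mice and 183 to 376 CPM (median 256) in WT mice. Groups overlapped almost throughout, the difference was -0.17 ± 0.16, and litter 3 had the largest of the within-litter values at -0.55. Without the striatum libraries low in markers the difference was -0.29. In the cortex the gene was at 112 to 231 CPM (median 165) and 144 to 218 CPM (median 176). The cortical difference of -0.097 ± 0.12 (log2, SE) took the opposite sign in litter 3, at 0.077.

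Samd14 (ENSMUSG00000047181, chr11:95009879-95026087, plus strand) encodes a sterile alpha motif protein related in part to the neurabins, which bind actin. It showed no common direction. In the cortex it was at 23.1 to 49.4 CPM (median 35.5) in Mbd5+/GT mice and 17.9 to 45.4 CPM (median 29.4) in WT mice. The groups overlapped over nearly their whole range, with a difference of 0.14 ± 0.19 (log2, SE). Striatal Samd14 was 28.2 to 70.7 CPM (median 38.2) in Mbd5+/GT mice and 27.0 to 100 CPM (median 39.2) in WT mice. Its highest values were in WT mouse M761 and Mbd5+/GT mouse M763, both low in striatal markers, followed by mouse M755, which was not, and WT mouse M754, which was. The difference was -0.11 ± 0.26 (log2, SE), and 0.096 without the 3 libraries low in striatal markers. Without the repeated libraries of WT mice M751 and M752 it was -0.27. In the cerebellum it was at 56.2 to 165 CPM (median 121) and 72.7 to 169 CPM (median 127), with the lowest values in mice M755 and M754. The cerebellar difference was -0.012 ± 0.20 (log2, SE).

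Cyp11a1 (ENSMUSG00000032323, chr9:58006411-58027023, plus strand) encodes the mitochondrial enzyme that cleaves the cholesterol side chain, the first step of steroid synthesis. Its cortical level was 4.53 to 10.1 CPM (median 5.74) in Mbd5+/GT mice and 4.71 to 12.4 CPM (median 8.36) in WT mice. Both groups spread over more than the distance between their medians, and the difference was -0.32 ± 0.22 (log2, SE). In the striatum it was at 1.95 to 9.85 CPM (median 4.55) and 2.78 to 9.41 CPM (median 5.41). The lowest striatal values were in mice M763 and M761, the difference was -0.20 ± 0.29, and it was -0.10 without the libraries low in markers. In the cerebellum the range was 1.54 to 5.52 CPM (median 3.72) in Mbd5+/GT mice and 3.34 to 4.87 CPM (median 4.10) in WT mice. The lowest was mouse M755, 4 of 10 Mbd5+/GT mice were below every WT mouse, and the difference of -0.22 ± 0.18 (log2, SE) came to -0.066 without mice M755 and M754. Cyp11a1 shares 145 exon bases (3.02% of its exons) with the lincRNA Gm17322 on the same strand, and reads there cannot be given to either gene alone.

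**Figure D3:**
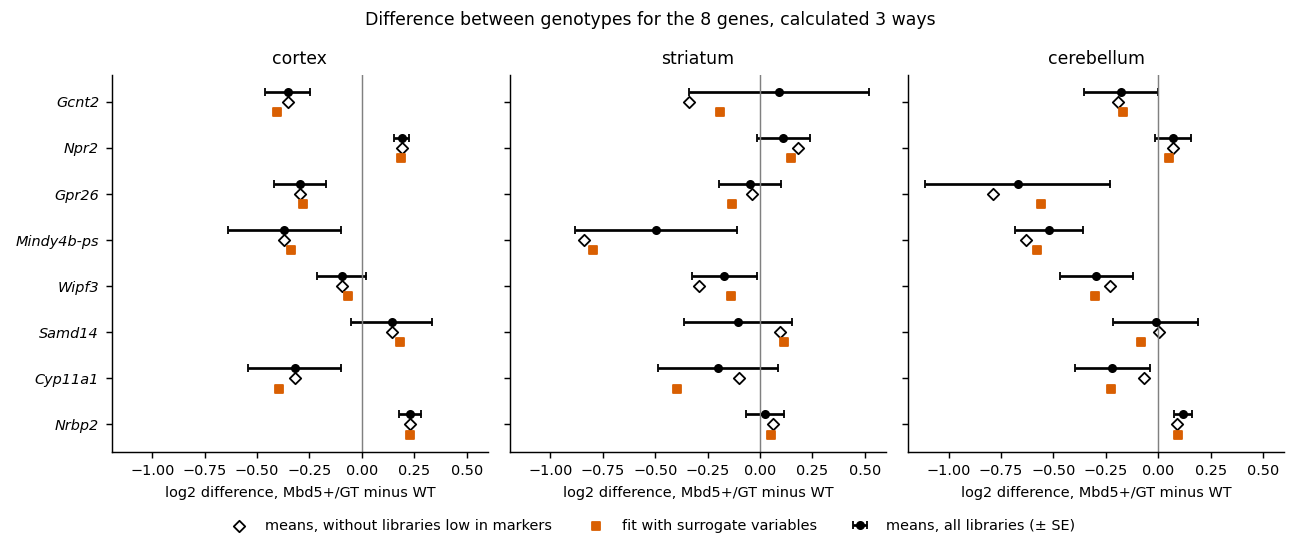
Difference in log2 level between Mbd5+/GT and WT mice for the 8 genes in each region, as the difference of means over all libraries with its SE (filled circles), without the libraries low in markers (open diamonds) and from the fit with surrogate variables (squares). Npr2 and Nrbp2 were above 0 and Gpr26, Mindy4b-ps, Wipf3 and Cyp11a1 below 0 in all 3 regions by each calculation, whereas Gcnt2 in striatum moved from 0.091 to -0.34 without 3 libraries.

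Leaving out 1 mouse at a time moved some of these log2 differences by over 1.5 times. In the cortex no mouse did so for Gcnt2, Npr2, Gpr26, Cyp11a1 or Nrbp2. Cortical Wipf3 became -0.035, -0.053 and -0.15 without mice M758, M761 and M763, and cortical Samd14 became 0.024, 0.22 and 0.086 without mice M751, M765 and M766. In the cerebellum the libraries of mice M754 and M755 moved several genes in opposite ways. Npr2 was at 0.015 without mouse M754 and 0.13 without mouse M755, and Gcnt2 at -0.083 and -0.29. Without mouse M755, Wipf3 was at -0.15 and Cyp11a1 at -0.092. Samd14, close to 0 in cerebellum, ranged from -0.11 to 0.11. In the striatum Mindy4b-ps alone was not moved so far by any mouse. Striatal Npr2 became 0.031, 0.074 and 0.064 without mice M752, M755 and M763, and Wipf3 became -0.096 and -0.10 without mice M752 and M755. Cyp11a1 ran from -0.34 without mouse M761 to -0.058 without mouse M763, and mice M754, M756 and M765 also moved it. The striatal differences of Gcnt2 (-0.15 to 0.26), Gpr26 (-0.11 to 0.0047), Samd14 (-0.20 to 0.065) and Nrbp2 (-0.013 to 0.065) took either sign, and 12, 12, 8 and 11 of the 18 mice moved them by over 1.5 times or to the other sign.

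Within litters, 10 of the 24 gene and region pairs gave 1 sign in the 3 litters. The same mice and contrast chose the genes, so nothing is read from this count. In the cortex, Gcnt2, Gpr26, Npr2 and Nrbp2 did so. In the striatum this held for Mindy4b-ps, Wipf3 and Cyp11a1, and in the cerebellum for Mindy4b-ps, Wipf3 and Nrbp2. Litter 2 had a single WT mouse, which bears on all of its values.

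**Figure D4:**
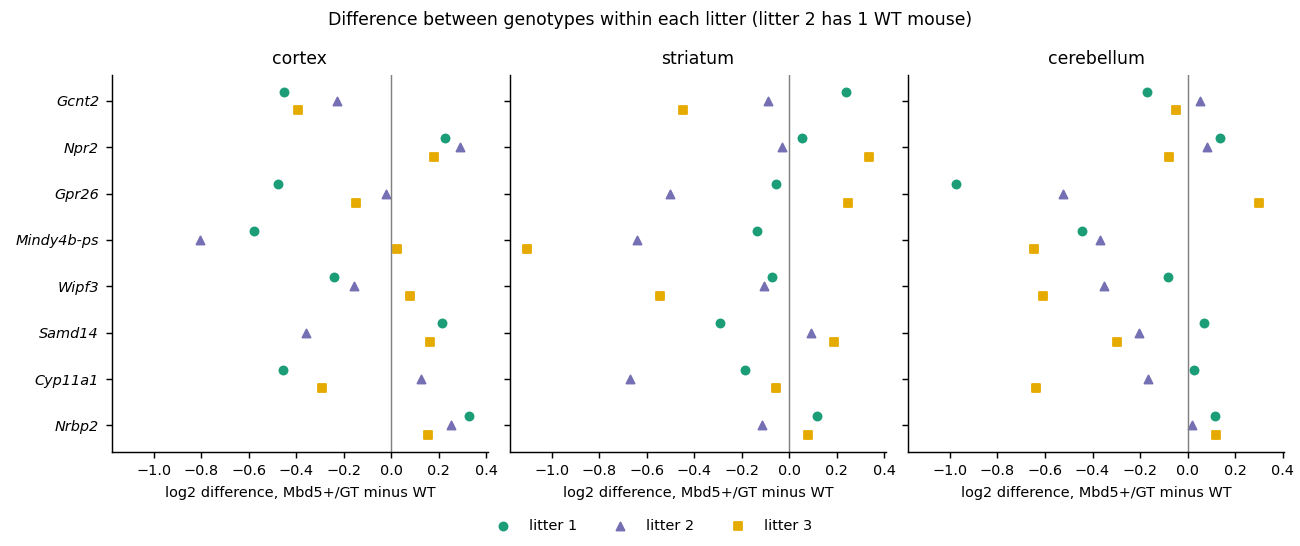
Difference in log2 level between Mbd5+/GT and WT mice for the 8 genes, calculated within litter 1, litter 2 and litter 3 in each region. Npr2 and Nrbp2 lay above 0 and Gcnt2 below 0 in all 3 litters in cortex, while Gpr26 in cerebellum ran from -0.98 in litter 1 to 0.30 in litter 3.

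Differences between regions of WT mice were not used to choose the genes. For Gpr26, Gcnt2, Wipf3, Samd14 and Cyp11a1 each of them was larger than the genotype difference in any region, which did not hold for the other 3 genes. These region fits did not pair the libraries of a mouse. Between cerebellum and cortex, 7 of the 8 genes passed an adjusted p of 0.05 by edgeR, in a background of 56.5% of 19219 genes tested. Gpr26 was the most unequal, with a log2 fold change of -4.46 ± 0.28 (SE; adjusted p = 1.69e-12), and cerebellum held 7.47 to 33.9 CPM against 233 to 412 CPM in cortex. Gcnt2 was lower in cerebellum by a log2 fold change of -2.77 ± 0.30 (adjusted p = 2.80e-08) and Wipf3 by -1.996 ± 0.13 (adjusted p = 2.08e-12), and neither gene's WT values overlapped between these regions. Cyp11a1 was lower with a value of -1.03 ± 0.21 (adjusted p = 0.000166). Samd14 was higher in cerebellum, at 1.89 ± 0.25 (adjusted p = 4.68e-07), as were Nrbp2 (0.65 ± 0.077, adjusted p = 1.05e-07) and Npr2 (0.45 ± 0.098, adjusted p = 0.00034). Mindy4b-ps gave 0.14 ± 0.31 (adjusted p = 0.73). Leaving out WT mice M754 and M761, each with a library low in markers, 7 genes still passed.

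Between cerebellum and striatum, 6 of the 8 genes passed, in a background of 66.2%. Gcnt2 had the largest difference, with a log2 fold change of -3.52 ± 0.31 (adjusted p = 6.71e-10), followed by Gpr26 at -3.14 ± 0.27 (adjusted p = 2.89e-10) and Wipf3 at -2.61 ± 0.13 (adjusted p = 2.29e-14). Each of these was lower in cerebellum. Samd14 was higher in cerebellum by 1.32 ± 0.24 (adjusted p = 4.15e-05) and Npr2 by 0.56 ± 0.098 (adjusted p = 2.23e-05), and Cyp11a1 was lower at -0.58 ± 0.21 (adjusted p = 0.0173). Nrbp2, at 0.15 ± 0.077, did not pass (adjusted p = 0.0932) but did so without mice M754 and M761, at 0.25 ± 0.081 (adjusted p = 0.0116). Mindy4b-ps gave 0.095 ± 0.31 (adjusted p = 0.80).

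Between cortex and striatum, 4 of the 8 genes passed, in a background of 49.1%. Gpr26 was higher in cortex, with a log2 fold change of 1.31 ± 0.25 (adjusted p = 0.000247), and WT cortex at 233 to 412 CPM lay above WT striatum at 96.3 to 169 CPM in all 8 mice. Wipf3 was lower in cortex at -0.62 ± 0.12 (adjusted p = 0.000419) and Nrbp2 at -0.50 ± 0.077 (adjusted p = 3.99e-05). Gcnt2 was lower in cortex at -0.75 ± 0.28 (adjusted p = 0.0300), a call that was lost with the mouse as replicate block (-0.67 ± 0.32, adjusted p = 0.0922). Without mice M754 and M761, whose striatum held little Gcnt2, the value was -1.11 ± 0.16 (adjusted p = 6.79e-05). Npr2 did not pass at 0.11 ± 0.098 (adjusted p = 0.37) and passed without those mice at 0.24 ± 0.084 (adjusted p = 0.0269). For Samd14 the value of -0.57 ± 0.24 (adjusted p = 0.0538) shrank to -0.19 ± 0.18 without them, and Cyp11a1 had 0.45 ± 0.21 (adjusted p = 0.0719).

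**Figure D5:**
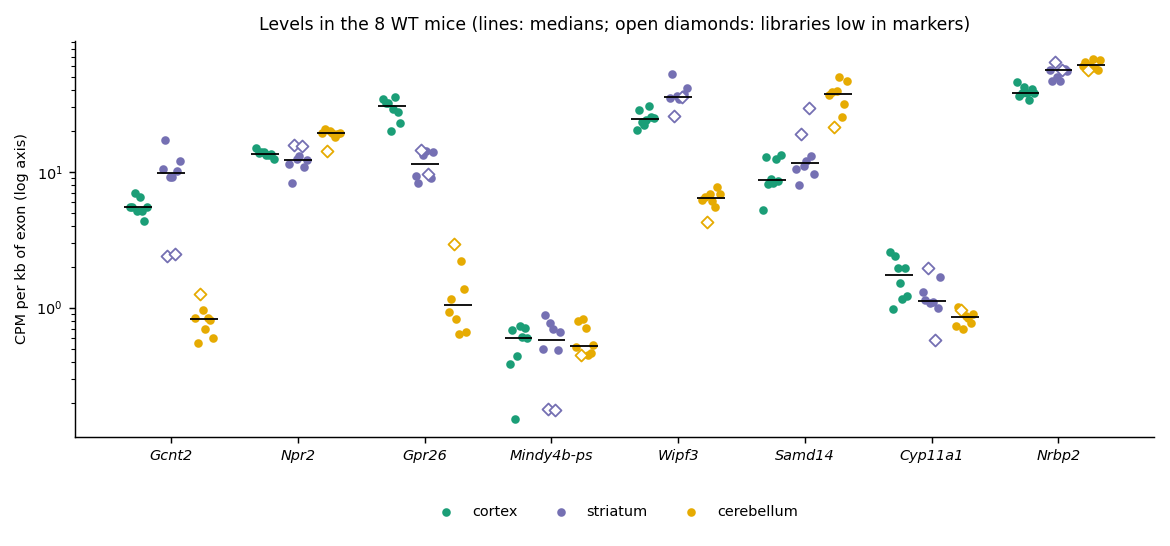
Level of the 8 genes per kb of exon (CPM per kb, log axis) in the cortex, striatum and cerebellum of the 8 WT mice, where each point is 1 library, lines are medians and open diamonds are libraries low in markers. Gpr26 and Gcnt2 in cerebellum lay below their cortical levels in every mouse, Samd14 in cerebellum lay above its cortical levels, and the ranges of Mindy4b-ps overlapped across the 3 regions.

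Scaled per kb of exon, the order of the genes differed by region. In WT cortex, mean levels were 39.2 CPM per kb for Nrbp2, 29.4 for Gpr26, 24.96 for Wipf3, 13.7 for Npr2, 9.74 for Samd14, 5.59 for Gcnt2, 1.72 for Cyp11a1 and 0.538 for Mindy4b-ps. Gpr26 and Wipf3 were neighbours that overlapped there. In WT cerebellum Nrbp2 remained at the head with 61.7 CPM per kb, Samd14 followed at 36.3 and Npr2 at 18.8, whereas Gpr26 was at 1.34, near Cyp11a1 at 0.846 and Gcnt2 at 0.819.

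Sequence upstream of the start sites was read for Npr2 and Wipf3, which are shown because both have 1 start with a promoter window in RefSeq yet differ in CpG number, and for the 3 starts of Gcnt2, because its transcripts begin far apart. CG, which reads the same on both strands, is in capitals. The 250 bases of Npr2 lie at chr4:43631685-43631934 and hold 13 CG, those of Wipf3 at chr6:54429436-54429685 with 28, and those of Gcnt2 at chr13:40859518-40859767, chr13:40886508-40886757 and chr13:40917384-40917633 with 5, 6 and 11, all on the plus strand of GRCm38.p6 and from RefSeq.
Npr2: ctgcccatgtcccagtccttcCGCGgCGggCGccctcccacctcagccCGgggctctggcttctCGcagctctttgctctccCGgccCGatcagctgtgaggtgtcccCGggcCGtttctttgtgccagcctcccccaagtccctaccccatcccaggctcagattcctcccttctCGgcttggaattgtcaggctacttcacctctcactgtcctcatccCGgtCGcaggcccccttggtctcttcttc
Wipf3: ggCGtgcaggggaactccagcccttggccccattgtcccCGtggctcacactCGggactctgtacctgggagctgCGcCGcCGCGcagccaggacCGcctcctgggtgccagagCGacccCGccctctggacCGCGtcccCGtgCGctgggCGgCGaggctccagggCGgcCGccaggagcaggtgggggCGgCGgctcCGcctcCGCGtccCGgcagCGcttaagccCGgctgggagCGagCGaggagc
Gcnt2, start 1: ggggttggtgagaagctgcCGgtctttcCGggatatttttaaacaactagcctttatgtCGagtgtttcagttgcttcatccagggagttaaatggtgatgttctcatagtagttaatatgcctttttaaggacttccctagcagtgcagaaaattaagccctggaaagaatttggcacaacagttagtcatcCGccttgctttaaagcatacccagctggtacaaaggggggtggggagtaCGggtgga
Gcnt2, start 2: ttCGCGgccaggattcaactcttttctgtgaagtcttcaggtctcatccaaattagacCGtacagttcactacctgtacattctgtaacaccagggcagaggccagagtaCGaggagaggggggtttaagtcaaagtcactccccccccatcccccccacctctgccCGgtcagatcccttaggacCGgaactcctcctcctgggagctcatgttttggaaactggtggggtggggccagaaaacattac
Gcnt2, start 3: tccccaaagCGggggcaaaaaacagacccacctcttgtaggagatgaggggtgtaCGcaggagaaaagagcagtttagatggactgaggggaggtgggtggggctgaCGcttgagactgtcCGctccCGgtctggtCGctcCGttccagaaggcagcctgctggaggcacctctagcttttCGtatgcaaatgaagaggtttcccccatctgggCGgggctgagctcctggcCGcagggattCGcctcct
Of 32851 RefSeq windows reaching 50 bases past the start, 8.56% held as many CG as that of Wipf3 and 37.9% as many as that of Npr2, with a median of 7 over all windows. CG number is given as a description, and its relation to the genotype differences was not tested. The 250 bases at the 2 starts of Cyp11a1, which are not shown, hold 4 and 1 CG. Promoters of Gpr26, Mindy4b-ps, Samd14 and Nrbp2 are named only.

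Overlap with other genes, which counts made without regard to strand would not separate, touched the exons of all but Gpr26 and Samd14. Antisense genes shared exon bases with Mindy4b-ps (10.6%, 4930593A02Rik), Gcnt2 (6.84%, A730081D07Rik, and 4.18%, Gm31683), Npr2 (5.70%, Gm12473) and Wipf3 (3.63%, 9130019P16Rik, and 3.40%, Scrn1) and Nrbp2 (3.39%, Gm48952). Of the 50-base words in their transcripts, 8.43% for Gcnt2, 7.67% for Mindy4b-ps, 5.65% for Wipf3, 4.36% for Npr2 and 2.06% for Cyp11a1 occurred in another gene, and most of these lay in the overlapping genes. For Nrbp2 the share was 1.59%, for Samd14 0.788% and for Gpr26 0.278%.

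Litter and sex were compared in a fit with genotype, since neither chose the genes. By edgeR, 0 of 8 genes passed for litter at an adjusted p of 0.05 in any region, in a background of 0% in each. At an unadjusted p under 0.05, 1 gene passed in cortex (Mindy4b-ps, p = 0.036), 1 in striatum (Gpr26, p = 0.026) and 2 in cerebellum (Gpr26, p = 0.0085, and Gcnt2, p = 0.025), against 7.9%, 5.68% and 15.6% of all genes, and DESeq2 also called 0 of 8, in backgrounds of 0.306%, 0.054% and 1.52%. Cerebellar Gpr26 was 1.46 higher in litter 3 than in litter 1 on the log2 scale in that fit. Without the libraries of mice M754 and M755, both of litter 3, the p for litter became 0.31 for Gpr26 and 0.78 for Gcnt2.

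For sex, 0 of 8 genes passed in any region by edgeR, in backgrounds of 0.0482% (cortex), 0.0593% (striatum) and 0.033% (cerebellum). Unadjusted, 0 passed in cortex, 2 in striatum and 3 in cerebellum, and the shares over all genes were 6.18%, 14.6% and 21.5%. In the cerebellum Gpr26 was lower in males by a log2 fold change of -1.70 ± 0.56 (unadjusted p = 0.0078) and Gcnt2 by -0.71 ± 0.23 (unadjusted p = 0.0061). DESeq2 called both, with adjusted p of 0.0219 and 0.0373, in a background of 6.72% of genes. Without mice M754 and M755, which are females, the edgeR values were -0.52 ± 0.42 (unadjusted p = 0.24) and -0.30 ± 0.19 (unadjusted p = 0.15). Cerebellar Npr2 was higher in males by edgeR, at 0.27 ± 0.12 (unadjusted p = 0.038), and came to 0.047 ± 0.095 (unadjusted p = 0.63) without those mice. In the striatum the values for Gpr26 (-0.57 ± 0.18, unadjusted p = 0.0046) and Wipf3 (0.47 ± 0.19, unadjusted p = 0.024) pointed opposite ways. Litters 1 and 2 each held a single sex, so litter and sex were separated by litter 3 only.

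Genes related to the 8 by family, class or pathway, not all of them known to act with the 8, were taken from lists. The lists were drawn up with earlier results of these data known. Of 94 listed genes, 92 were analysed here, and 80, 81 and 79 passed the count filter in cortex, striatum and cerebellum. None passed an adjusted p of 0.05 for genotype by edgeR or DESeq2, in edgeR backgrounds of 0.0107%, 0.00539% and 0.00551% and DESeq2 backgrounds of 0.338%, 0.0162% and 0.0165%. At an unadjusted p under 0.05, 10 passed in cortex (2 higher and 8 lower in Mbd5+/GT mice, 12.5% against 8.47% of all genes), 9 in striatum (4 higher and 5 lower, 11.1% against 7.44%) and 4 in cerebellum (all lower, 5.06% against 2.75%).

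Each list is described by the gene with its lowest p. Among enzymes of lactosamine chains, Gcnt1, the core 2 branching relative of Gcnt2, had 10.4 ± 3.17 CPM in Mbd5+/GT and 12.6 ± 3.78 CPM (SD) in WT cerebellum, with a log2 fold change of -0.32 ± 0.094 (unadjusted p = 0.0028), and the most abundant were B4galt2 and B4galt3. In the cyclic GMP list of Npr2, Gucy1b1, a subunit of the nitric oxide receptor cyclase, gave -0.15 ± 0.051 in cortex (unadjusted p = 0.0075) and was also the most abundant per kb, ahead of its partner Gucy1a1. C-type natriuretic peptide, the Npr2 ligand encoded by Nppc, was at 2.60, 2.05 and 4.77 CPM per kb in WT cortex, striatum and cerebellum. For the cyclic AMP list of Gpr26, Adcy5, the main adenylyl cyclase of striatal neurons, was at 257 ± 66.1 CPM in Mbd5+/GT and 374 ± 176 CPM (SD) in WT cortex, with -0.34 ± 0.14 (unadjusted p = 0.025), beside the lower striatal neuron and higher choroid plexus markers of Mbd5+/GT cortex, whose part was not tested. Gnas and Adcy1 were the most abundant of that list. Mindy2 gave -0.070 ± 0.039 in cortex (unadjusted p = 0.088), and it and Mindy1 were the most abundant of the MINDY enzymes.

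In the list of Wipf3, Wasl, which encodes N-WASP, had 0.20 ± 0.074 in striatum (unadjusted p = 0.017), and Cdc42 and Arpc2, an activator of N-WASP and a subunit of the actin-branching complex, were the most abundant. For Samd14, the neurabin gene Ppp1r9a gave -0.20 ± 0.072 in cortex (unadjusted p = 0.011), with Ppp1r9b, which encodes spinophilin, and Capzb the most abundant. In steroid synthesis Fdxr, the reductase that feeds electrons to the Cyp11a1 enzyme, gave 0.11 ± 0.047 in cortex (unadjusted p = 0.031), and Fdxr and the cholesterol carrier Stard3 were the most abundant. Among pseudokinase relatives of Nrbp2, Trib2 gave -0.21 ± 0.061 in cortex (unadjusted p = 0.0026), and Nrbp1 and Wnk2 were the most abundant.

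Genes most like each of the 8 were found from the deviations of log2 CPM from the mean of each region and genotype over 54 libraries, which share mice, tissue dissection and depth. Gpr26 varied most like Prickle2 (Pearson's r = 0.929, and 0.867 over the 49 libraries left without those low in markers), Rimbp2 and Trerf1. Gcnt2 went with Cacna2d3 (0.884, and 0.668 without them) and Inf2. Samd14 went with Hpcal1 (0.891 and 0.871), Ldoc1 and Rec8. Npr2 went with Ssh3 (0.885 and 0.835), Cpsf4 and BC017158. For Wipf3 the nearest was 2010300C02Rik (0.824 and 0.767), then Slc9a5 and Wscd2. Cyp11a1 was nearest to Gm17322 (0.821 and 0.794), the lincRNA that overlaps it, then Osbpl1a and Ccl27a. Mindy4b-ps was nearest to Kcnab1 (0.776 and 0.707), Kcnk2 and Nexn, and Nrbp2, with the weakest likeness, to Cuedc1 (0.710 and 0.716), Arrdc1 and Tmem150a. These are descriptions across libraries.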

How the data were processed

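RNA-seq was available for 3 brain regions of 18 mice (54 libraries). The deposited values are raw counts per gene, which the authors made by aligning reads with STAR (2.4.2 in the submitters' processing notes, which also name FastQC 0.10.1) to GRCm38 and counting them per Ensembl gene, with the strand setting not given in the sources used here; 92 spike-ins in the table were left out of totals. Symbols, coordinates and exon lengths came from GENCODE M21 on GRCm38, which matched 46574 of the 47069 gene identifiers. Genes above 4 counts in 8 or more libraries were tested by edgeR's quasi-likelihood test (edgeR 4.0.16, R 4.3.3) with Benjamini-Hochberg adjustment over all genes; all 8 members passed in each region. Genotype fits carried surrogate variables from sva 3.50.0 (4 in cortex, 4 in striatum, 2 in cerebellum). Litter and sex fits carried genotype. Levels are TMM-scaled CPM, and log2 CPM used a prior count of 2. DESeq2 1.42.0 was an alternative, and fits were tested on simulated data. The members and the lists of related genes and markers were chosen with earlier results of these data known. All 8 members are named, with, per list, the gene of lowest p over regions and the 2 highest per kb, and the 3 most alike genes per member, except that 1 alike gene of Gcnt2 and 1 marker are not reported here. The 3 libraries of a mouse come from the same animal per the labels. The main region contrasts did not pair them, and the mouse as replicate block was an alternative. Mice are the replicates, and p-values of the genotype, litter and sex fits measure the spread between them. Those of the main region contrasts treat the 3 libraries of a mouse as independent. The number of reads limits precision for Mindy4b-ps. Setting aside libraries low in markers was chosen after seeing the data.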

Additional observations from a re-analysis of the deposited data

Results flagged for a closer look

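In 9 of 48 sets (8 genes, 3 regions, 2 genotypes), the highest or lowest library lay far from its neighbour, measured as the gap divided by the whole range of log2 CPM in the set. Chance flags about 1 in 20 sets, but these sets share libraries. The share over all genes was not calculated, so nothing is read from this count about the 8 genes. The cerebellum library of Mbd5+/GT mouse M755 accounted for 5 of the 9 sets. It had the highest Gcnt2 (0.712) and Gpr26 (0.52) and the lowest Npr2 (0.69), Wipf3 (0.769) and Samd14 (0.54) of its group. That library had 99.1 CPM of granule cell markers against 2362 CPM or more in the other 9 Mbd5+/GT cerebellum libraries. The cerebellum library of WT mouse M754, at 983 CPM of these markers, was the lowest WT library for Npr2 (0.64).

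In cortex, Mindy4b-ps was far lowest in Mbd5+/GT mouse M767 (0.501), at 0.707 CPM, and in WT mouse M754 (0.577), at 0.490 CPM, where it rested on 13 counts. Nrbp2 in cortex was far highest in Mbd5+/GT mouse M758 (0.563), at 202 CPM. The cortex library of mouse M758 had the lowest summed cortical neuron markers of its region (747 CPM, 60.5% of the median). It also held the highest cortical levels of the hypothalamus marker Pmch (82.5 CPM against a median of 0.246) and of Ttr (1196 CPM). The part of these markers in its Nrbp2 level was not tested.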

How the results depend on the processing

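The 3 WT region comparisons called 3 to 5, 7, and 6 to 7 of the 8 genes under every alternative run (DESeq2, upper quartile normalization, no filter, at least 10 counts in every library, without the repeated striatum libraries of WT mice M751 and M752, mouse as replicate block, Mbd5+/GT mice, without mice M754 and M761). With the mouse as replicate block, cortex against striatum called 3 genes in place of 4, losing Gcnt2, and no other call changed. Gcnt2 was also lost with no filter (adjusted p = 0.058) and without repeated libraries (adjusted p = 0.28). Differences that did not pass in the main comparison changed sign in 5 instances: for cortex against striatum, Npr2 was -0.014 without repeated libraries, and Mindy4b-ps was 0.11 there, 0.025 with the replicate block and 0.054 in Mbd5+/GT mice, and for cerebellum against striatum Mindy4b-ps was -0.071 without mice M754 and M761. DESeq2 called 2 genes for sex in cerebellum where edgeR called 0. No related gene passed for genotype under any alternative. The number of genes with 1 sign of genotype difference in the 3 regions was 6, ran from 5 with upper quartile normalization to 8 without libraries low in markers, and from 4 to 7 when each mouse was left out in turn. It could not be given with at least 10 counts in every library, where Mindy4b-ps was not tested in striatum. The cause of these changes was not tested.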
